A study of Sus scrofa with 11 samples.

Results

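CAPN1, CAPN3 and CTSL are 3 of the 25322 genes in the table of longissimus lumborum, a muscle of the back, and each symbol belonged to 1 pig Ensembl gene ID (ENSSSCG00000012999, ENSSSCG00000004728 and ENSSSCG00000010948). They encode calpain 1, calpain 3 and cathepsin L, proteases of muscle turnover and of the tenderisation of meat after slaughter, and were chosen by symbol with their values in the comparison described here already known. All 3 passed the filter on low counts, which left 11329 genes. RNA was sequenced from 11 female pigs aged 23 weeks, with no treatment named in the labels, and the pigs were grouped by the fibre types counted in that muscle. Among the 7 pigs of the group fibre1, type I (slow, oxidative) fibres made up more than 17% and type IIB (fast, glycolytic) fibres less than 70% of fibres. In the 4 pigs of the group fibre2B the bounds were less than 8% type I and more than 70% type IIB. Each pig is 1 sample, so the replicates are animals, and neither breed nor relatedness is given in the sources used here.

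Calpains are cysteine proteases that are switched on by calcium. Calpain 1 is a heterodimer of its own catalytic subunit with the small subunit encoded by CAPNS1, is held in check by calpastatin, and cuts proteins that anchor the myofibril at the Z-disc and cell membrane. Calpain 3 is found mainly in skeletal muscle, is anchored to titin in the sarcomere, and is the gene lost in a recessive limb-girdle muscular dystrophy. Cathepsin L is a cysteine protease of the lysosome, where it degrades proteins delivered by autophagy and endocytosis, and its transcript is known to rise in several forms of muscle wasting.

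The name of the third gene needs care. The gene table also holds an ID listed as CTSV (ENSSSCG00000011171), the symbol of a close relative of cathepsin L, and the RefSeq gene table of Sscrofa11.1, which is not the build of these files, gives CTSL as a synonym of its CTSV entry beside a separate CTSL entry, so 2 RefSeq genes answer to the name CTSL. Counts on the ID listed as CTSL ran from 16 to 130 per pig and those on the ID listed as CTSV from 1444 to 4309. Which of the pair corresponds to the cathepsin L usually described in muscle is not settled by these files, and the authors' counting could have split reads between close relatives. Both are therefore given, and CTSV was added after its values were seen.

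The libraries held 14832736 to 36374829 counts. Levels are given as CPM, counts scaled to the size of each library, on TMM-adjusted sizes, which correct for differences in composition between libraries. Fibre1 pigs 5 and 6 stood apart: their TMM factors were 0.718 and 0.779 against 0.959 to 1.19 in the other 9 pigs, and the 10 most abundant nuclear genes took 45.2% and 44.1% of their counts against 29.5% to 36.8%. Of 8 muscle markers listed, the 3 with an ID (ACTA1, NEB and DES) summed to between 56440 and 161200 CPM in each pig. The sum was highest in pigs 5 and 6 (161200 and 152300 CPM, against at most 89750 in the other 9). It mainly follows ACTA1, which had means of 95527 CPM in fibre1 and 67197 in fibre2B. DES had 5886 and 3775 CPM, and NEB 3778 and 2858.

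Calpain 1 lay higher in fibre1. CAPN1 ran from 65.1 through a median of 85.2 to 118 CPM in the 7 fibre1 pigs. In fibre2B it was 47.3 CPM in pig 10, 71.4 in pig 11, 44.7 in pig 14 and 58.4 in pig 16. In all, 6 of 7 fibre1 pigs lay above every fibre2B pig, and only fibre1 pig 17 fell among them, under fibre2B pig 11. The group means were 93.6 ± 21.4 CPM (SD, n = 7) and 55.4 ± 12.2 CPM (SD, n = 4), a log2 fold change (fibre1 minus fibre2B) of 0.76 ± 0.20 (SE), or 1.69-fold.

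Calpain 3 varied more inside fibre1. CAPN3 ran from 424 through 636 to 930.4 CPM in fibre1, with pigs 5 and 6 (913 and 930.4 CPM) far above the next pig at 684 CPM. In fibre2B it was 478 CPM in pig 10, 587 in pig 11, 422 in pig 14 and 476 in pig 16. The groups overlapped, since fibre1 pigs 12 and 7 lay within the fibre2B range and pig 1 (588 CPM) was level with its top. Means were 673 ± 188 and 491 ± 69.1 CPM (SD, n = 7 and 4), a log2 fold change of 0.46 ± 0.21 (SE). Without fibre1 pigs 5 and 6 that value was 0.23 ± 0.17, and without scaling factors it was 0.21 ± 0.15.

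Cathepsin L lay the other way. The ID listed as CTSL ran from 1.01 through 2.11 to 3.35 CPM in fibre1, and pigs 5 and 6 were the lowest of all 11 at 1.01 and 1.10 CPM. In fibre2B it was 2.43 CPM in pig 10, 4.72 in pig 11, 3.41 in pig 14 and 3.44 in pig 16. Of the fibre2B pigs 3 of 4 lay above every fibre1 pig, and 4 of 7 fibre1 pigs lay below every fibre2B pig. Means were 2.03 ± 0.889 and 3.50 ± 0.941 CPM (SD, n = 7 and 4), a log2 fold change of -0.76 ± 0.32 (SE), and -0.52 ± 0.27 without fibre1 pigs 5 and 6. This gene is thinly counted: the 16 counts of fibre1 pig 5 give a 95% Poisson interval of 0.580 to 1.65 CPM and the 109 counts of fibre2B pig 11 one of 3.88 to 5.70 CPM, which cover counting error only. For CAPN3 in pig 6 the same interval was 916 to 945 CPM, so counting error is a small part of its spread.

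The ID listed as CTSV had the same direction at a depth where counting error is small. It ran from 70.6 through 126 to 143 CPM in fibre1 and was 154 CPM in fibre2B pig 10, 187 in pig 11, 216 in pig 14 and 130 in pig 16. In fibre1, 6 of 7 pigs were below every fibre2B pig, and pig 2 was the exception. Means were 111 ± 25.8 and 172 ± 37.5 CPM (SD, n = 7 and 4), a log2 fold change of -0.62 ± 0.20 (SE), and -0.70 ± 0.22 without fibre1 pigs 5 and 6. Unlike CTSL, CTSV was not lowest in those pigs, which had 126 and 127 CPM.

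**Figure D1:**
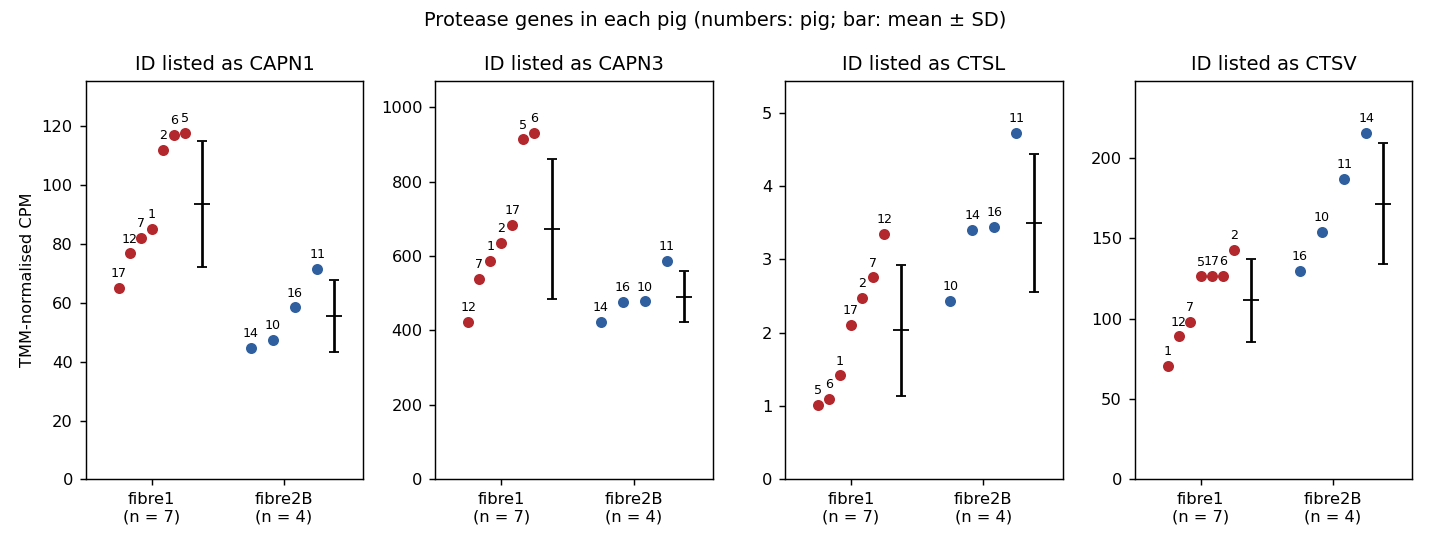
TMM-normalised CPM (vertical axes, from 0) of the 3 proteases and of the ID listed as CTSV in each pig, with the pig's number at each point and the mean ± SD of each group as a bar. CAPN1 and CAPN3 are highest in fibre1 pigs 5 and 6, where CTSL is lowest, and in each panel at least 1 pig of a group lies within the range of the other group.

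By edgeR's quasi-likelihood test over all 11329 genes with Benjamini-Hochberg adjustment, CAPN1 passed (adjusted p = 0.035) and CAPN3 (0.174) and CTSL (0.134) did not, so 1 of the 3 was called where 9.01% of all tested genes were. These are the values with which the genes were chosen, and nothing is read from them. The 2 groups were fully apart in 0 of the 3 genes, against 7.55% of all tested genes (3.4% with fibre1 higher and 4.15% with fibre1 lower). The CAPN1 call was kept in 4 of the 11 fits that left out 1 pig, namely without fibre1 pig 7, 12 or 17 or fibre2B pig 11, and was lost in the others (adjusted p from 0.051 to 0.118). It was also lost without fibre1 pigs 5 and 6 (0.104) and without scaling factors (0.104). CTSV did not pass (adjusted p = 0.061). It passed in 4 of 12 other settings (0.038 to 0.046), and the highest adjusted p among the 12 was 0.115. In the edgeR fits that left out 1 pig it passed in 0 of 11 (0.063 to 0.211).

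Ratios of counts within a library do not depend on any scaling factor, though their size depends on gene length and they are compared only between pigs. These ratios were chosen after the values were seen, some of them to set a gene that lay higher in fibre1 against one that lay lower, and are given with no test. CAPN3 had 5.52 to 10.5 counts per CAPN1 count in fibre1 (median 6.90). In fibre2B the ratio was 10.1 in pig 10, 8.22 in pig 11, 9.45 in pig 14 and 8.16 in pig 16. Fibre1 pig 17 lay above the fibre2B range, and the other 6 fibre1 pigs had less CAPN3 per CAPN1 than any fibre2B pig.

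Set against calpain 1, CTSL had 8.62 to 43.6 counts per 1000 CAPN1 counts in fibre1 (median 22.2) and 51.4 to 76.2 in fibre2B. CTSV had 0.829 to 1.94 counts per CAPN1 count in fibre1 (median 1.16) and 2.22 to 4.83 in fibre2B, with fibre2B pig 14 highest. Neither ratio overlapped between the groups, which the choice of a higher and a lower gene favours, so nothing is read from it. Against calpain 2, the other widely expressed calpain, CAPN1 had 0.657 to 1.28 counts per CAPN2 count in fibre1 and 0.501 to 0.810 in fibre2B, and those ranges overlapped through fibre1 pig 17 and fibre2B pigs 11 and 16.

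**Figure D2:**
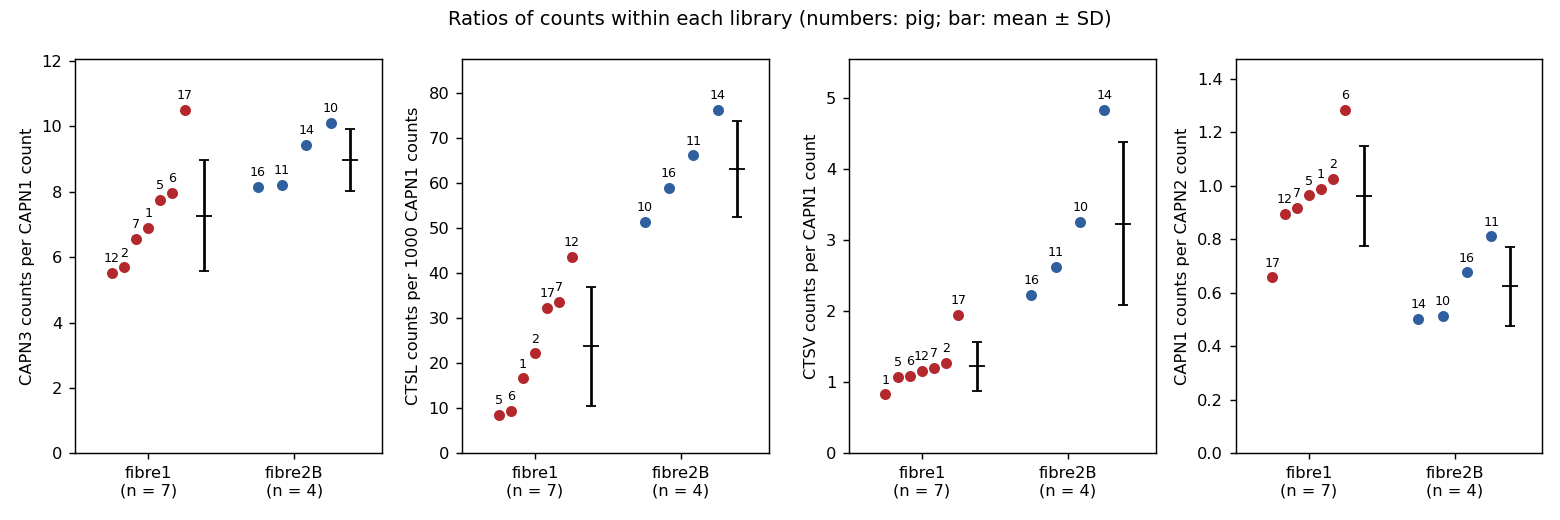
Ratios of counts of 2 genes in the same library (vertical axes, from 0) for each pig, with pig numbers and the mean ± SD of each group. The 2 panels of cathepsin counts over CAPN1 counts show fibre1 and fibre2B apart, with gaps from 43.6 to 51.4 for CTSL and from 1.94 to 2.22 for CTSV, while the CAPN3 and CAPN2 panels overlap.

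Isoform counts resolved CAPN3 further. CAPN1, CTSL and CTSV each had 1 isoform with counts, and CAPN3 had 2, ENSSSCT00000005221 and ENSSSCT00000005224. Isoforms were tied to genes by their counts, which summed to the gene's within 1 count in every pig. The share of ENSSSCT00000005221 ran from 40.4% in pig 17 through a median of 52.1% to 71.6% in pig 12 in fibre1. In fibre2B it was 53.6% in pig 10, 52.2% in pig 11, 41.8% in pig 14 and 53.0% in pig 16. The fibre2B values lay inside the fibre1 range, and means were 53.1 ± 11.4% and 50.1 ± 5.60% (SD, n = 7 and 4), a difference smaller than either SD.

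The spread between pigs in this share was wide beside its counting error. In fibre1 pig 12 the exact 95% binomial interval was 70.9% to 72.3%, and in pig 17 it was 39.6% to 41.3%, though estimated counts of isoforms that share sequence carry more error than that. ENSSSCT00000005224 ran from 120 CPM in fibre1 pig 12 to 522 CPM in fibre1 pig 5, while ENSSSCT00000005221 ran from 176 CPM in fibre2B pig 14 to 484 CPM in fibre1 pig 6. The low CAPN3 of pig 12 therefore lay in ENSSSCT00000005224, since its ENSSSCT00000005221 level of 303 CPM was within the range of the other fibre1 pigs. What distinguishes the 2 transcripts is not given in the sources used here.

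**Figure D3:**
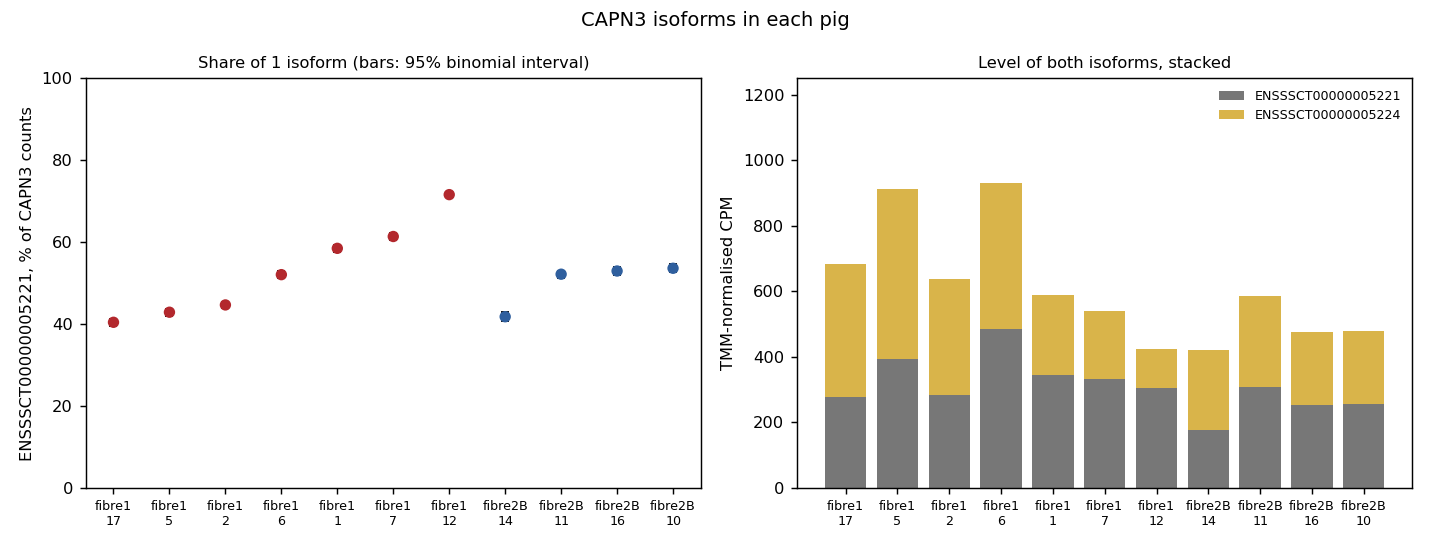
Left, the share of CAPN3 counts on isoform ENSSSCT00000005221 in each pig (percent, with exact 95% binomial intervals, most of them smaller than the points); right, TMM-normalised CPM of both isoforms stacked, with pigs in the same order. The share runs from 40.4% to 71.6% in fibre1, and fibre2B pig 14 at 41.8% lies below the other 3 fibre2B pigs.

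Correlations across pigs were computed for the 3 pairs on log2(CPM + 1), with permutation p-values adjusted by Benjamini-Hochberg over the 3 pairs. The genes were chosen with their group differences known, and those differences enter every value over all 11 pigs, its p included, so these values are a description. Over all 11 pigs CAPN1 and CAPN3 had a positive correlation (Pearson r = 0.775, permutation p = 0.0052, adjusted p = 0.0146; Spearman rho = 0.755, p = 0.0107, adjusted p = 0.0162). CAPN3 and CTSL had a negative one (r = -0.766, permutation p = 0.00976, adjusted p = 0.0146; rho = -0.755, p = 0.0108, adjusted p = 0.0162). CAPN1 and CTSL also had a negative one (r = -0.609, permutation p = 0.0474, adjusted p = 0.0474; rho = -0.636, p = 0.0408, adjusted p = 0.0408). Without the 2 pigs farthest from the median of the first gene of each pair, r was 0.706 and -0.692 for the pairs with CAPN1 (fibre2B pigs 10 and 14 left out) and -0.409 for CAPN3 and CTSL (fibre1 pigs 5 and 6 left out).

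With each level centred on its group mean, which removes the group difference, r over 11 pigs was 0.674 for CAPN1 and CAPN3, -0.654 for CAPN3 and CTSL and -0.249 for CAPN1 and CTSL (rho 0.573, -0.555 and -0.191), given with no p. Without the 2 pigs farthest from the median of the first gene, r of the centred levels was 0.523 for CAPN1 and CAPN3. It was -0.291 for CAPN1 and CTSL, in both cases without fibre1 pig 5 and fibre2B pig 11. For CAPN3 and CTSL it was -0.34, without fibre1 pigs 6 and 12. Fibre1 pigs 5 and 6 had the highest CAPN1 and CAPN3 and the lowest CTSL. Without both, r over 9 pigs was 0.572 for CAPN1 and CAPN3 (permutation adjusted p = 0.322), -0.261 for CAPN1 and CTSL (0.504) and -0.409 for CAPN3 and CTSL (0.418). Levels without scaling factors gave 0.592, -0.250 and -0.455 over 11 pigs (permutation adjusted p = 0.200, 0.464 and 0.235). Leaving out 1 pig, the adjusted p of the first and last pair stayed under 0.05 in 9 of 11 cases each, all but those without fibre1 pig 5 or 6. For CAPN1 and CTSL it did so in 4 of 11, and was 0.0531 to 0.143 when the pig left out was 1, 5, 6, 7 or 12 of fibre1 or 14 or 16 of fibre2B (permutation). The sum of the 3 muscle markers, which mainly follows ACTA1, was also highest in pigs 5 and 6, and its part in the relations was not tested.

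Within the 7 fibre1 pigs, CAPN3 and CTSL had r = -0.876 (exact permutation p = 0.0107, adjusted p = 0.0321) and rho = -0.857 (exact p = 0.0238, adjusted p = 0.0714). CAPN1 and CAPN3 had r = 0.646 (exact permutation p = 0.126, adjusted p = 0.156) and rho = 0.607 (exact p = 0.167, adjusted p = 0.167). CAPN1 and CTSL had r = -0.583 (exact permutation p = 0.156, adjusted p = 0.156) and rho = -0.714 (exact p = 0.0881, adjusted p = 0.132). Without the 2 farthest pigs, which left 5, r was -0.733 for CAPN3 and CTSL (pigs 6 and 12 left out), 0.0908 for CAPN1 and CAPN3 and -0.0041 for CAPN1 and CTSL (pigs 5 and 6 left out for both). The call of the first pair was lost without fibre1 pig 2, 5, 6, 7 or 12 (exact permutation adjusted p from 0.0667 to 0.192), and without scaling factors (r = -0.656, adjusted p = 0.200). The 4 fibre2B pigs were too few for a correlation.

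**Figure D4:**
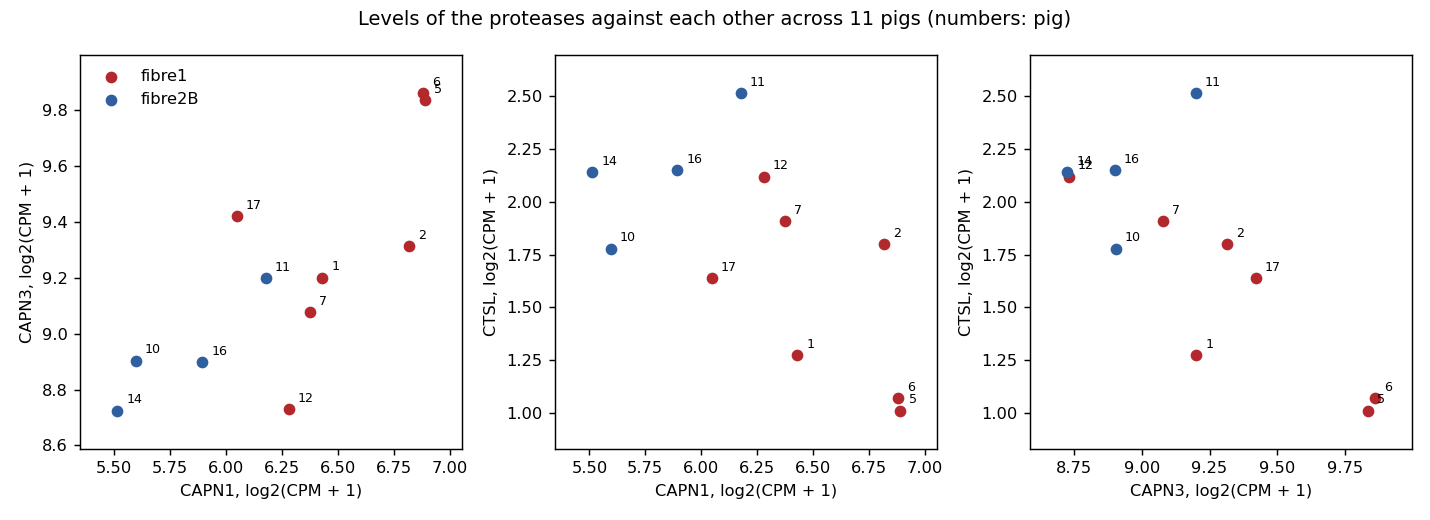
log2(CPM + 1) of each pair of proteases in the 11 pigs, fibre1 in red and fibre2B in blue, with pig numbers. Fibre1 pigs 5 and 6 form the corner of each panel: upper right for CAPN1 and CAPN3 (r = 0.775 with them and 0.572 without), lower right for the 2 panels with CTSL.

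The same correlations with CTSV in place of CTSL were chosen after seeing the data. Over 11 pigs r was -0.416 with CAPN1 (permutation p = 0.206, adjusted p = 0.311), -0.0878 with CAPN3 (p = 0.792, adjusted p = 0.792) and 0.414 with CTSL (p = 0.208, adjusted p = 0.311). Inside fibre1 the sign turned for both calpains, with r = 0.443 for CAPN1 (exact permutation adjusted p = 0.507) and 0.603 for CAPN3 (0.467). The 2 cathepsin IDs thus shared the direction of the group difference and differed in how they lay across the fibre1 pigs, a difference that was not tested.

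Genes whose levels lay closest to each protease were found by Pearson r over the 11 pigs, among 4568 or 4569 named genes with a mean of at least 5 CPM. Closest to CAPN1 were RABL6 (0.989), STK25 (0.980), ZNF358 (0.974), CHMP1A (0.972) and PHRF1 (0.969), and after centring on group means their r was 0.936 to 0.974. Closest to CAPN3 were SEC61A2 (0.987), EXOC2 (0.986), the fast-fibre myosin-binding protein gene MYBPC2 (0.985), RAB7A (0.977) and PATL1 (0.974), with 0.965 to 0.984 after centring. Closest to CTSL were BTBD10 (0.946), C1QTNF3 (0.942), CRYZL1 (0.931), KDELR3 (0.929) and CNN3 (0.921), with 0.864 to 0.911 after centring. Values of at least 0.9 were not confined to the genes named: 148 genes reached that with CAPN1, 122 with CAPN3 and 15 with CTSL. The genes named were picked for their high r, and all share the same libraries and scaling.

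The rest of the calpain system mostly stayed within the spread between pigs. Of 17 listed genes 13 had an ID and 8 were tested, and CAST, the gene of calpastatin, had no ID under that symbol. CAPN1 and CAPN15, a member of the wider calpain family, were higher in fibre1, 0 were lower, and 6 did not pass. Background was 4.38% of tested genes called higher in fibre1 and 4.63% called lower. CAPN15 had 4.34 ± 0.866 against 2.24 ± 0.483 CPM (fibre1 against fibre2B, SD, n = 7 and 4), a log2 fold change of 0.96 ± 0.21 (edgeR adjusted p = 0.023). Its groups did not overlap, and 3.4% of all tested genes were likewise fully apart with fibre1 higher. CAPNS1, the partner subunit of calpain 1, had 107 ± 20.9 against 85.4 ± 15.2 CPM (0.32 ± 0.17, edgeR adjusted p = 0.218), and CAPN2 had 97.6 ± 13.6 against 89.0 ± 2.55 CPM (0.13 ± 0.13, edgeR adjusted p = 0.514). The list's median log2 fold change was 0.23, beside 0.0073 over all tested genes. Without scaling factors 0 of the 8 passed, 2 had an unadjusted p under 0.05 with fibre1 higher and 1 with fibre1 lower, and 4 values were positive and 4 negative, where the median of all genes was -0.19. Without fibre2B pig 14 or without fibre1 pigs 5 and 6, settings chosen after seeing the data for these counts, 0 of the 8 passed and 2 had an unadjusted p under 0.05.

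None of the cathepsins passed, with most values on the fibre2B side. The list held 16 genes and also counts LGMN, the gene of the lysosomal protease legumain, whose symbol is not that of a cathepsin. LGMN had a log2 fold change of -0.041 ± 0.16 (edgeR adjusted p = 0.891). Of the 16 listed 11 were tested, 0 passed by edgeR in either direction, and 5 had an unadjusted p under 0.05, all lower in fibre1. Over all tested genes 28.9% had an unadjusted p under 0.05, 14.7% with fibre1 lower and 14.2% with fibre1 higher. DESeq2 called 1 of the 11 lower (CTSV), where it called 7.28% of all tested genes lower, and limma-voom called 0, against 3.85%. The 5 were CTSV, CTSL, CTSO, CTSS and CTSC, the last 3 named after their values were seen: CTSS, a cathepsin of macrophages and other antigen-presenting cells, had 14.6 ± 7.54 against 28.9 ± 18.4 CPM (-0.97 ± 0.40, edgeR adjusted p = 0.126), CTSC had -0.56 ± 0.26 (0.170) and CTSO had -0.81 ± 0.32 (0.114). The lysosomal proteases CTSB, with 165 ± 33.0 against 164 ± 33.0 CPM (0.014 ± 0.18, edgeR adjusted p = 0.967), and CTSZ (-0.12 ± 0.22, 0.752) had values close to zero difference. Negative values were found in 9 of the 11, with a median of -0.41. Without fibre2B pig 14 that was 6 of 11, with a median of -0.062 and 2 at an unadjusted p under 0.05, and without fibre1 pigs 5 and 6 the median was -0.15.

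The cystatins, which inhibit cathepsins, gave 0 calls among 3 tested by edgeR, 0 at an unadjusted p under 0.05 and 0 by DESeq2 or limma-voom. CSTB had -0.074 ± 0.18, CST6 0.13 ± 0.19 and CST7 -0.40 ± 0.43 on the log2 scale.

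**Figure D5:**
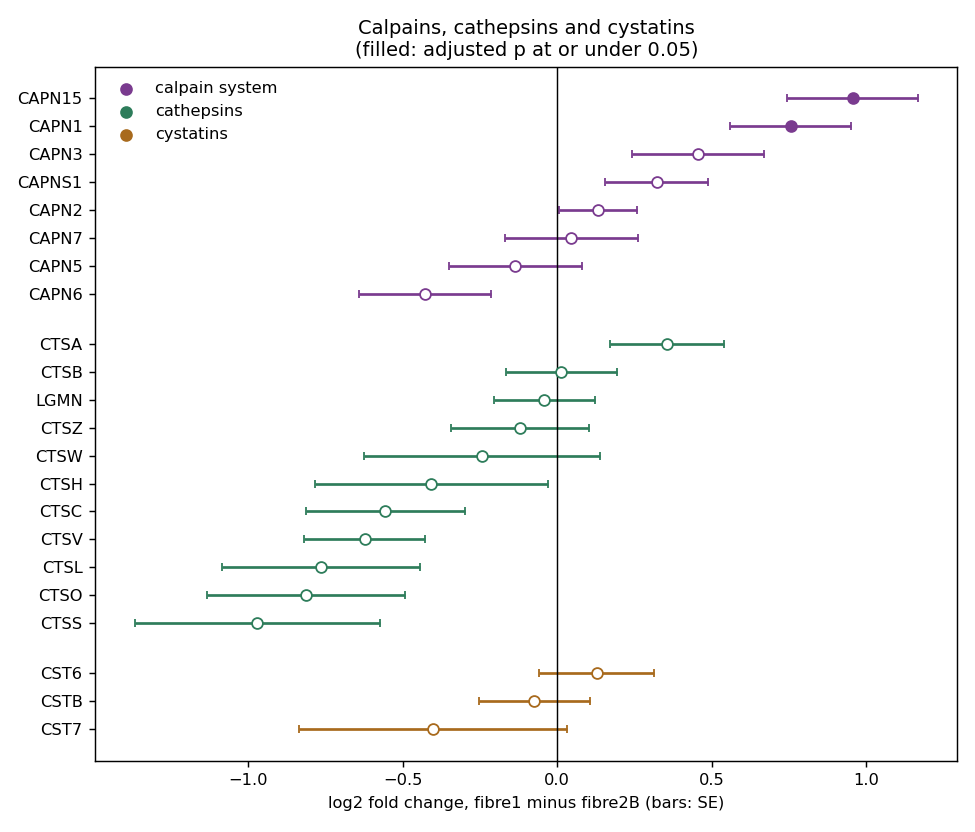
Log2 fold change, fibre1 minus fibre2B, of each tested calpain, cathepsin and cystatin gene, with its SE as a bar; filled points passed an adjusted p of 0.05 in edgeR. CAPN15 and CAPN1 are filled, and 9 of the 11 genes of the cathepsin list, LGMN among them, lie to the left of zero.

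Markers of other cell types differed between pigs, and macrophages and fibroblasts are among the cells that express cathepsins. Of 12 macrophage and leukocyte markers 8 had an ID, 0 of these at 0 in all pigs, and they summed to 17.9 to 61.1 CPM in fibre1 (median 35.2) and 34.0 to 95.6 CPM in fibre2B (median 46.7). The lowest sums were those of fibre1 pigs 6 and 5 (17.9 and 20.2 CPM), and the highest that of fibre2B pig 14 (95.6 CPM). CTSL was lowest in pigs 5 and 6 but highest in fibre2B pig 11, whose sum was 42.6 CPM, and CTSV was highest in pig 14 but lowest in fibre1 pig 1, whose sum was 35.2 CPM. Of 6 fibroblast markers 5 had an ID, 0 of them at 0 in all pigs, and they summed to 472 to 976 CPM in fibre1 (median 639) and 743 to 1437 CPM in fibre2B (median 1274), again lowest in pigs 6 and 5 and highest in pig 14. By edgeR 0 of the 8 macrophage and leukocyte markers were called (1 lower at an unadjusted p under 0.05, and 0 by DESeq2 or limma-voom), and 2 of the 4 fibroblast markers tested, DCN and LUM, were lower in fibre1 (adjusted p = 0.019 and 0.026). Of 3 red blood cell markers 2 had an ID and summed to 137 to 467 CPM in fibre1 and 423 to 955 CPM in fibre2B, and HBB was lower in fibre1 (edgeR adjusted p = 0.041). Of 3 satellite cell markers 2 had an ID and summed to 6.30 to 16.8 and 13.2 to 32.8 CPM, and VCAM1 was lower in fibre1 (edgeR adjusted p = 0.049). Endothelial markers (4 of 6 with an ID, 61.5 to 127 and 72.3 to 113 CPM) had a median log2 fold change of 0.19, and adipocyte markers (2 of 5, 1.70 to 6.43 and 1.47 to 5.42 CPM) one of 0.25. By edgeR 0 of these 4 and 0 of these 2 were called, with 1 endothelial marker higher and 1 lower at an unadjusted p under 0.05 and by DESeq2, and 0 adipocyte markers by either. No marker with an ID in these 4 lists was at 0 in all pigs. Beside these calls, edgeR called 4.63% of all tested genes lower in fibre1. Without fibre2B pig 14, edgeR called 0 fibroblast, 0 red blood cell and 0 satellite cell markers, and 0 genes in all. Without fibre1 pigs 5 and 6 the marker calls were 0, 1 and 0, among 28 genes called in all. The part of these cell types in the values of CTSL and CTSV was not tested. In whole muscle, fewer cells of a type and less RNA per cell cannot be told apart.

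Other genes of the lysosome and autophagy went both ways. Of 25 listed 19 were tested, 1 was higher in fibre1, 0 were lower and 18 did not pass, with a median log2 fold change of -0.013. EdgeR called 4.38% of all tested genes higher in fibre1 and 4.63% lower. Unadjusted p was under 0.05 for 4 on the lower and 2 on the higher side, together 6 of 19, near the 28.9% of all tested genes. DESeq2 called 1 higher and 2 lower, where it called 7.78% of all tested genes higher and 7.28% lower. Limma-voom called 1 higher and 1 lower, where it called 427 of 11329 genes higher and 436 lower. LAMP1, a membrane protein of the lysosome, had 68.0 ± 7.22 against 46.9 ± 9.15 CPM (0.53 ± 0.14, edgeR adjusted p = 0.037). Its relative LAMP2 had 10.3 ± 3.15 against 16.6 ± 1.51 CPM (-0.69 ± 0.20, edgeR adjusted p = 0.051). The autophagy gene GABARAPL1 had -0.58 ± 0.20 (edgeR adjusted p = 0.083).

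Genes of calpain substrates and of proteins that anchor the sarcomere gave 1 call. Of 20 listed 14 were tested, 1 was higher in fibre1, 0 were lower and 13 did not pass. Over all tested genes edgeR called 4.38% higher and 4.63% lower. Positive values were found in 12 of the 14 (median 0.40, beside 0.0073 over all tested genes). Unadjusted p was under 0.05 for 5 on the higher and 1 on the lower side, against 14.2% and 14.7% of all tested genes. Without scaling factors 0 passed, and 10 values were positive and 4 negative (median 0.20, where that of all genes was -0.19). DESeq2 called 5 higher and 1 lower, where it called 7.78% of all tested genes higher and 7.28% lower. The 3 muscle markers also had positive values (median 0.51), of which DES and NEB stand in this list too, and their part in its values was not tested. DYSF, which encodes the membrane repair protein dysferlin, had 45.0 ± 9.41 against 28.9 ± 3.05 CPM (0.64 ± 0.17, edgeR adjusted p = 0.037). TLN1, the talin 1 gene, had 0.40 ± 0.12 (edgeR adjusted p = 0.052), MYOM1, a protein of the M-band, had 0.95 ± 0.32 (0.071), and VCL, the vinculin gene, had -0.50 ± 0.16 (0.068). TTN, whose product anchors calpain 3, had no ID under that symbol. LAMP1 and DYSF did not pass without fibre2B pig 14 (edgeR adjusted p = 0.116 and 0.094) or without fibre1 pigs 5 and 6 (0.090 and 0.096). They also did not pass without scaling factors (edgeR adjusted p = 0.271 and 0.155). With a covariate for the counts taken by the 10 top genes the edgeR adjusted p was 0.062 and 0.070. Both passed by DESeq2 and by limma-voom with or without quality weights.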

How the data were processed

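The authors deposited expected counts, which are estimated reads for each gene and isoform, without normalisation or decimals, in 1 column per pig. Per the labels' protocols, muscle was taken right after slaughter and 300 ng of RNA went into each TruSeq library. The series' design text names 50 single-end cycles and 5 technical repetitions. CASAVA 1.8.2, FastQC, STAR, RSEM, edgeR, DESeq2 and Sscrofa10.2 stand in the submitters' processing notes with no roles. No coordinates or sequences were used here. The strand setting and the annotation release are not given in the sources used here.

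Columns were joined to pigs by the number in the titles, and there were 0 columns of other samples. A table of gene IDs named 11804 rows. Expected counts were rounded, which changed nothing, and tested with edgeR 4.0.16 in R 4.3.3 (TMM factors, filterByExpr, quasi-likelihood F test, group term, adjusted p of 0.05). Each SE was derived from the fold change and its F statistic. Correlations used a pseudocount of 1 CPM and two-sided permutation tests (100000 resamples over 11 pigs, all 5040 pairings over 7). No pair of pigs agreed within sampling noise (lowest chi-square per degree of freedom 25.2). Alternatives were other factors, filters and pseudocounts, DESeq2 1.42.0, limma 3.58.1, a covariate and leaving out pigs. The fit was also run on simulated counts, drawn for each gene independently and with no pigs that stood apart from the rest. That run cannot show how such pigs affect the calls. Members and lists were chosen with earlier results of these data known. Named genes were the 3 members, called calpains, cathepsins and cystatins with the 3 most abundant of each list, up to 4 of the smallest p in the other lists, and the 5 closest by r. One gene that this rule names is not reported here.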

Additional observations from a re-analysis of the deposited data

Results flagged for a closer look

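The share of CAPN3 counts on isoform ENSSSCT00000005221 in fibre2B pig 14 was 41.78%, and that on ENSSSCT00000005224 was 58.22%. The gap to the nearest of the other 3 fibre2B pigs was 0.878 of the group's range, above Dixon's 95% limit of 0.829 for 4 samples. Both are 1 observation, since the 2 shares add up to the whole gene. Chance flags about 1 in 20 groups, and 16 groups of pigs were checked. Fibre1 pigs 17 (40.4%), 5 (42.9%) and 2 (44.7%) had shares near that of pig 14.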

How the results depend on the processing

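CAPN1 and CAPN3 stayed higher and CTSL lower in fibre1 in all 12 other settings and all 11 fits without 1 pig. Leaving out 1 pig gave log2 fold changes of 0.68 to 0.91 for CAPN1, 0.36 to 0.56 for CAPN3 and -0.94 to -0.58 for CTSL. CAPN1 lost its call without scaling factors (0.52), with a covariate for the counts taken by the 10 top genes (0.60, adjusted p = 0.058) and without fibre1 pigs 5 and 6 (0.61). CAPN3 and CTSL passed in 0 alternatives (adjusted p from 0.074 to 0.440 and from 0.058 to 0.299). Without scaling factors the median of all genes was -0.19, and relative to it CAPN1 had 0.71, CAPN3 0.39 and CTSL -0.73. The number of genes called, 1021, was 157 there (53 higher and 104 lower in fibre1, against 496 and 525), 1706 with DESeq2, 1748 with limma-voom and quality weights, 460 with the covariate, 28 without fibre1 pigs 5 and 6 and 0 to 1548 without 1 pig. The 0 is edgeR without fibre2B pig 14, where 2436 genes had an unadjusted p under 0.05, and other tools were not run there.

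Over 11 pigs, r without scaling factors was 0.592 for CAPN1 and CAPN3, -0.25 for CAPN1 and CTSL and -0.455 for CAPN3 and CTSL. Without fibre1 pigs 5 and 6 these were 0.572, -0.261 and -0.409, and centred on group means 0.674, -0.249 and -0.654. CAPN1 and CTSL had -0.578 with a pseudocount of 10 (adjusted p = 0.0642). Leaving out 1 pig gave 0.714 to 0.848, -0.681 to -0.5 and -0.898 to -0.676. Within fibre1, without scaling factors, CAPN1 and CTSL turned to 0.0889, CAPN3 and CTSL had -0.656 and lost its call (adjusted p = 0.2), and CAPN1 and CAPN3 had 0.0651. Leaving out 1 fibre1 pig gave 0.527 to 0.91, -0.761 to -0.439 and -0.971 to -0.804 for the 3 pairs. CAPN1 and CAPN3 passed only without pig 17. Without pigs 5 and 6, 5 fibre1 pigs remain, too few for that test. The cause of these changes was not tested. No paired analysis was possible because no replicate number occurs in both groups. Depth limits CTSL, with as few as 16 counts in a pig.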

Other observations

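CAPN1 had 0.732 to 1.02 counts per CAPNS1 count in fibre1 (median 0.887) and 0.523 to 0.733 in fibre2B (median 0.673), and the groups overlapped through fibre1 pig 17 and fibre2B pig 16. The ID listed as CTSL had 8.03 to 37.6 counts per 1000 counts on the ID listed as CTSV in fibre1 (median 17.4) and 15.8 to 26.5 in fibre2B (median 20.5). The fibre2B range lay inside the fibre1 range, whose lowest values were those of pigs 5 and 6 (8.03 and 8.66) and whose highest was that of pig 12.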
